A study of Mus musculus with 2 samples.

Results

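H2BK120ub, histone H2B carrying a single ubiquitin, was mapped by ChIP-seq (sequencing of the DNA that an antibody to the mark pulls down with chromatin) in liver primary cells, and the regions described here are the mid-length places where a peak of each genotype met exactly 1 peak of the other. One library came from WT cells and 1 from Alb; Cre-UBR7fl/fl cells (UBR7-KO), in which Cre driven by the albumin promoter deletes the floxed E3 ubiquitin ligase UBR7 in hepatocytes and other albumin-expressing cells. The labels describe the cells as conditionally immortalised mouse cells grown in serum-containing medium, and they give no age, sex or number of animals. The paper, in contrast, describes the ChIP cells as the primary liver cells of its RNA-seq and mentions no immortalisation. It states the age of those mice, and that all mice were male and of a C57BL background. The peak positions, however, are those of the human build hg19, so the label of mouse cells and the positions do not match, and no liver marker or Ubr7 itself could be checked in these lists.

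A pair was kept when a WT peak and a UBR7-KO peak, both 1000 to 3000 bp long, overlapped by at least 1 bp and neither touched any other peak of the opposite list. Pairs were taken from 15 autosomes, leaving out chromosomes 4, 13, 16, 17, 18, 19 and 22. This gave 4257 pairs of the 29927 one-to-one pairs in the series (14.2%). The paired peaks made up 4.18% of the 101866 WT peaks and 3.34% of the 127444 UBR7-KO peaks. Peak length and overlap chose the members, so the lengths and the presence of overlap are descriptions. With 1 library per genotype, differences have no replicate check and no test was run. Wilson 95% intervals cover counting error over pairs only, and neighbouring pairs are not independent.

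H2BK120ub is laid down mainly by the RNF20/RNF40 ubiquitin ligase complex behind elongating RNA polymerase II, and it is best known from the bodies of transcribed genes. It loosens nucleosome packing and favours methylation of histone H3 on active genes. UBR7 is a PHD-finger protein that has been described as a further E3 ligase for this residue. A mark that spreads over gene bodies has no sharp summit, so how far the edges of a called peak fall at the same place in 2 libraries bears on how sharply the region is defined. Genes and sequence at these positions were not analysed here.

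The paired peaks shared most, but seldom all, of their length. The shared stretch was 1262 bp at the median (quartiles 1007 and 1604 bp), and it ranged from 1 to 2842 bp. It covered 77.6% of the WT peak and 77.6% of the UBR7-KO peak at the median, and 59.7% of the length spanned by both peaks together (quartiles 40.4% and 77.5%). Summed over the pairs, WT peaks held 7.94 Mb, UBR7-KO peaks held 7.87 Mb and 5.45 Mb lay in both. At least 50% of each peak was shared in 2970 pairs (69.8%, interval 68.4 to 71.1), where the same was seen in 42.9% of all one-to-one pairs. As a limit on length favours a shared portion of this kind, nothing is read from that contrast. At least 80% of each was shared in 1076 pairs (25.3%) and at least 90% in 405 pairs (9.51%). At the other extreme, 29 pairs met by fewer than 100 bp.

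The pair with the most complete overlap lay on chromosome 21, with the WT peak at 9825452 to 9827544 and the UBR7-KO peak at 9825447 to 9827539. Both peaks were 2093 bp long, and the UBR7-KO peak was displaced by 5 bp to the left at both edges. The next lay on chromosome 10, where a WT peak at 8555232 to 8558025 enclosed a UBR7-KO peak at 8555236 to 8558011, with 99.4% of the joined length shared. The third was also on chromosome 10, with a WT peak at 127708026 to 127709532 inside a UBR7-KO peak at 127708016 to 127709538. These last pairs were not strong peaks in the WT list. The fold enrichment, the authors' ratio of pileup to local background, was 2.15 and 2.11 in WT and 2.35 and 2.31 in UBR7-KO, respectively. The first pair, in contrast, had the highest pileup of both lists and is described again with the pairs of very high pileup.

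Peaks inside one another and peaks that were staggered were both frequent. In 1493 pairs (35.1%, interval 33.7 to 36.5) one peak lay wholly inside the other. The UBR7-KO peak was the inner one in 790 pairs (18.6%, interval 17.4 to 19.8) and the WT peak in 703 pairs (16.5%, interval 15.4 to 17.7). Where the UBR7-KO peak was inside, it had a median length of 1405.5 bp and the enclosing WT peak one of 2227 bp. Where the WT peak was inside, its median length was 1384 bp and that of the enclosing peak 2247 bp. The other 2764 pairs (64.9%) were staggered. Of these, the UBR7-KO peak extended to the right in 1369 and to the left in 1395, so neither direction along the chromosome prevailed. No pair had the same start and the same end (0 of 4257, which allows a share of up to 0.0902% by the Wilson interval).

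Next, the edges were compared one at a time. The start of the UBR7-KO peak lay 8 bp to the right of the WT start at the median (quartiles -437 and 396 bp), and its end lay 13 bp to the left, a median shift of -13 bp (quartiles -382 and 349 bp). These signed shifts were small beside their spread. Without sign, the median shift was 414 bp for starts, 364 bp for ends and 390 bp over both. Starts fell within 100 bp of each other in 840 pairs (19.7%) and ends in 869 pairs (20.4%). Both edges were within 100 bp in 204 pairs (4.79%, interval 4.19 to 5.48) and within 250 bp in 795 pairs (18.7%).

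Pairs with 1 matched edge beside a displaced one were counted next. Starts alone fell within 250 bp in 38.7% of pairs and ends in 40.5%, so unrelated edges would also give many such pairs. Whether single matched edges were more or less frequent than that was not tested. Exactly 1 edge was within 250 bp in 1781 pairs (41.8%, interval 40.4 to 43.3), both were in 795 and neither in 1681 (39.5%). At 100 bp the counts were 1301, 204 and 2752, so that most pairs then had no matched edge. At 1000 bp they were 1061, 2848 and 348, and most pairs had both. On the plot of start against end shifts, these pairs form the arms of a cross along the lines of no shift. Start and end shifts also rose and fell together, with a Spearman's rho of 0.52 across pairs. Part of this follows from the rule, as peaks of these lengths have to meet.

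**Figure D1:**
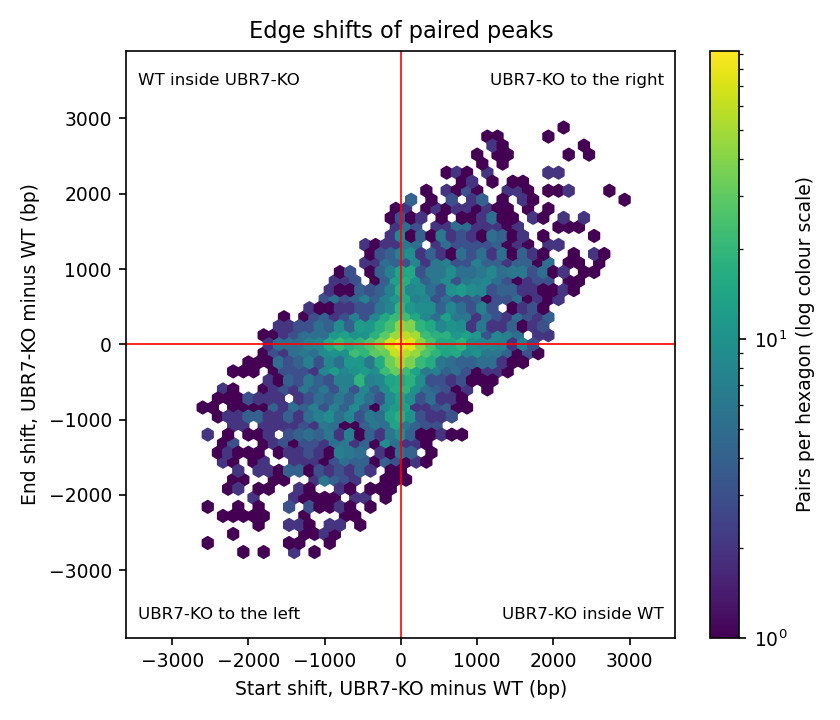
Start shift (x axis, bp) against end shift (y axis, bp), UBR7-KO minus WT, over 4257 pairs, with the number of pairs per hexagon on a log colour scale. Pairs gather at the crossing point and along both red lines of no shift, where 1 edge shifted little. The quadrants name the 4 arrangements. Of these, 1369 and 1395 pairs are staggered to the right and left, and 790 and 703 have the UBR7-KO or the WT peak inside.

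Small midpoint shifts were more frequent than large ones within the range that the overlap rule allowed. The midpoint of the UBR7-KO peak lay 382 bp from that of the WT peak at the median (quartiles 145 and 779 bp), with a signed median of -9.5 bp. It was further right in 2094 pairs (49.2%) and further left in 2163 (50.8%, interval 49.3 to 52.3). To set peaks of different length on 1 scale, the shift was divided by the summed length of the pair over 2, close to the largest shift at which both peaks still meet. This relative midpoint shift had a median of 20.8% (quartiles 8.37% and 41.5%). It was under 10% in 1246 pairs (29.3%, interval 27.9 to 30.7), and 20.6% of all one-to-one pairs of any length were below the same limit. The length limits cap how unequal the 2 peaks can be, which can favour small relative shifts, so nothing is read from that contrast. An even spread, given as a reference only, would place 10% of pairs in each step of 10 percentage points. The share fell from 29.3% in the first step to 10.0% between 30% and 40%, and was between 4.93% and 4.46% from 50% to 80%. It ended at 1.74% above 90%. Thus 817 pairs (19.2%) had a relative shift over 50%. At such a shift, the midpoint of the longer peak lies outside the shorter one.

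**Figure D2:**
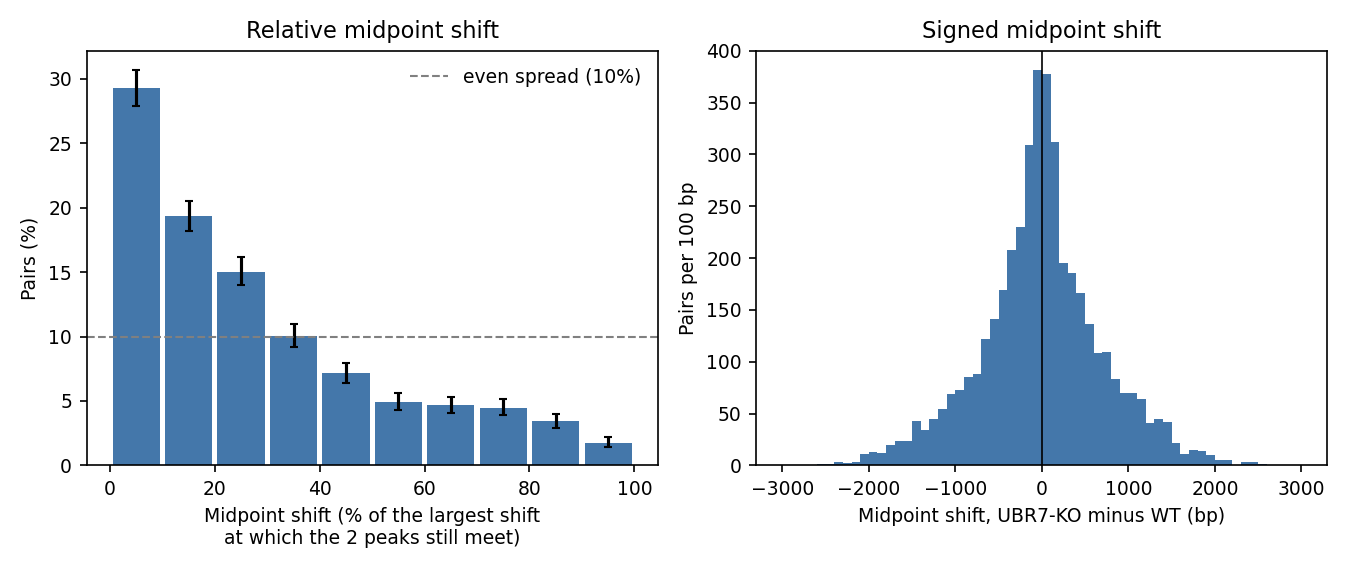
Left, percent of the 4257 pairs (bars, with 95% Wilson intervals) by relative midpoint shift in steps of 10 percentage points, with a dashed line at the 10% of an even spread. Right, number of pairs per 100 bp of signed midpoint shift, UBR7-KO minus WT. The first step holds 29.3% of pairs and the last 1.74%, and the signed shifts lie evenly on both sides of 0.

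The pair with the largest relative shift lay on chromosome 21, where the WT peak at 19065718 to 19066818 and the UBR7-KO peak at 19066818 to 19068702 met in a single base. The second lay on chromosome 7, with a WT peak at 141755208 to 141757786, a UBR7-KO peak at 141757778 to 141758995 and 9 bp in common. Such pairs stood at the edge of the rule. Among 1 to 3 kb peaks without a counterpart, 28 combinations of a WT and a UBR7-KO peak missed each other by fewer than 100 bp, the closest by 3 bp, beside the 29 pairs that met by fewer than 100 bp. In contrast, the pair closest to both median lengths lay on chromosome 8, with the WT peak at 95600755 to 95602556 and the UBR7-KO peak at 95600764 to 95602517. Its edges differed by 9 and -39 bp, and 97.3% of the joined length was shared.

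Paired peaks had nearly the same length distribution in both libraries but were only loosely matched one by one. WT members had a median length of 1807 bp, with quartiles of 1399 and 2300 bp. UBR7-KO members had a median of 1764 bp, with quartiles of 1377 and 2295 bp. The WT peak was the longer in 2187 pairs (51.4%, interval 49.9 to 52.9) and the UBR7-KO peak in 2063 (48.5%), with 7 ties. The median difference, UBR7-KO minus WT, was -23 bp, whereas the median difference without sign was 474 bp. The UBR7-KO peak was at least 1.5 times as long in 663 pairs (15.6%), where 28.0% of all one-to-one pairs passed that limit. The WT peak was at least 1.5 times as long in 712 pairs (16.7%), where 35.3% of all one-to-one pairs passed. The limits of 1000 and 3000 bp cap these ratios, so the lower shares follow from the rule.

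The same length stood for different ranks in the 2 lists. Counting from the longest peak, the median paired peak stood at 45.4% of the WT list and at 40.0% of the UBR7-KO list, in which fewer peaks are long. The shift from WT to UBR7-KO rank was -5.63 percentage points at the median (quartiles -14.8 and 3.63). When ranked only among the 1 to 3 kb peaks of the same chromosomes, the medians were 44.9% and 45.1%. Lengths of paired peaks ranked together with a Spearman's rho of 0.12. This is a description over 4257 pairs that share 2 libraries and a narrow range of lengths. It was 0.59 among the 852 pairs with the smallest relative midpoint shifts (up to 6.45%), 0.40 among the 851 up to 15.4% and -0.01 among the 851 up to 27.4%. It was -0.22 among the 851 up to 48.9% and -0.04 among the 852 above. Lengths thus ranked together only in the groups of smaller shift. The grouping is not independent of length, as the relative shift is scaled by the summed lengths and both lengths are limited. The part of this in the rhos was not tested.

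**Figure D3:**
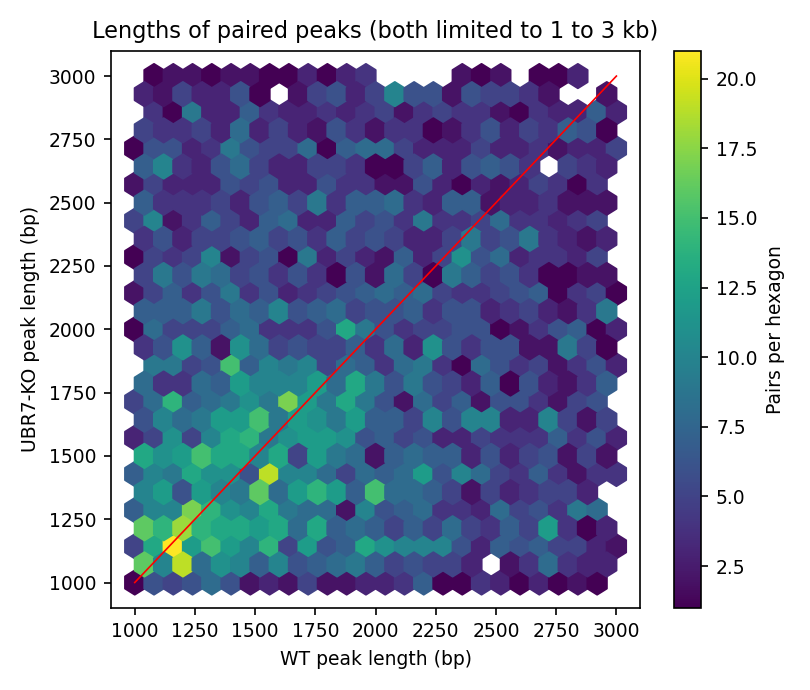
Length of the WT peak (x axis, bp) against that of the UBR7-KO peak (y axis, bp) in 4257 pairs, with the number of pairs per hexagon in colour and a red line at equal length. Pairs fill the whole square set by the limits of 1000 and 3000 bp, with a ridge along the line of equal length that is densest at its short end.

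Fold enrichment, which the rule used only in that both peaks had to be listed, placed the paired peaks moderately above the middle of both lists. Being listed in both libraries can itself favour stronger peaks, so nothing is read from this standing. The median fold enrichment was 2.26 in WT (quartiles 2.11 and 2.53) against 2.204 over its whole list. In UBR7-KO it was 2.19 (quartiles 2.08 and 2.35) against 2.15. Counting from the highest fold enrichment, the median paired peak stood at 41.3% of the WT list and at 42.5% of the UBR7-KO list. The top 10% of the own list held 799 paired WT peaks (18.8%, interval 17.6 to 19.97) and 597 paired UBR7-KO peaks (14.0%, interval 13.01 to 15.1). The lowest 10% held 348 (8.17%) and 354 (8.32%). Values were nevertheless low in absolute terms, as no listed peak was under 2 and the lower quartiles of the members lay close to that. Over all 1 to 3 kb peaks of the same chromosomes, the lower quartile was 2.08 in WT and 2.06 in UBR7-KO.

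The position above the middle was also seen against peaks of the same length class. On the 15 chromosomes, 27538 WT peaks and 36853 UBR7-KO peaks were 1 to 3 kb long. Of these, 15.5% and 11.6% were members, while 64.0% and 67.8% had no counterpart. The median fold enrichment without counterpart was 2.16 in WT and 2.14 in UBR7-KO, at 57.6% and 54.0% of the lists, and 7.07% and 7.08% of such peaks were in the top 10%. Peaks whose only partner was under 1 kb stood at 49.3% in WT and 47.9% in UBR7-KO. Those whose only partner was over 3 kb stood at 43.7% and 44.3%, closest to the members. Peaks that were not in a one-to-one relation stood at 46.1% and 48.2%. By fold enrichment, members were the highest and unmatched peaks the lowest of these classes in both libraries, while the classes between them differed in order. A member had to pass the calling threshold in both libraries, and an unmatched peak in only 1. As this can favour stronger members, nothing is read from the contrast of members and unmatched peaks. The median pileup, the authors' signal of stacked fragments, was 6.77 for members and 6.20 for unmatched peaks in WT, and 4.48 and 4.34 in UBR7-KO. By pileup members were not the highest, as peaks with a partner over 3 kb had 6.90 and 4.62, and peaks not in a one-to-one relation had 6.90 and 4.58. Pileup scales with the unknown read depth and is given within each library only. The median length of unmatched peaks was lower too, at 1662 and 1614 bp, and the part of length in these ranks was not tested. Within the members alone, length and fold enrichment had a Spearman's rho of -0.01 in WT and -0.05 in UBR7-KO. These rhos do not cover the unmatched peaks.

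Among the pairs, the fold rank in 1 list said little about the fold rank in the other. The fold enrichments of paired peaks ranked together at a Spearman's rho of 0.12. No listed value is under 2 and many lie close to it, from 1 library per genotype. The part of this narrow range in the rho was not tested. The ranks of paired peaks differed by 27.0 percentage points at the median (quartiles 11.9 and 48.5). The WT rank was the higher in 2213 pairs (52.0%, interval 50.5 to 53.5). Both peaks stood in the upper 50% of their lists in 1479 pairs (34.7%) and both in the lower 50% in 834 (19.6%). The remaining pairs were divided, with 980 (23.02%) in the upper part of the WT list only and 964 (22.6%) in the upper part of the UBR7-KO list only. The WT rank was at least 50 percentage points higher in 526 pairs (12.4%, interval 11.4 to 13.4), near the 11.7% of all one-to-one pairs. The UBR7-KO rank was at least 50 points higher in 478 pairs (11.2%, interval 10.3 to 12.2), near the 10.5% of all one-to-one pairs. The members are part of that background.

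What agreement there was lay mainly at the top. When the pairs themselves were ranked, 86 of the 426 highest by WT fold enrichment (20.2%, interval 16.7 to 24.3) were also among the 426 highest by UBR7-KO. Of the lowest 425 by WT, 41 (9.65%, interval 7.19 to 12.8) were among the lowest by UBR7-KO, close to the 10% that unrelated ranks would give. The partners of the highest 426 WT peaks stood at 28.8% of the UBR7-KO list at the median, and the partners of the highest 426 UBR7-KO peaks at 21.97% of the WT list. Pileup ranked together more closely than fold enrichment (rho of 0.32), and the local background recovered from both values more closely still (rho of 0.47). All of these are descriptions over pairs from the same 2 libraries.

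**Figure D4:**
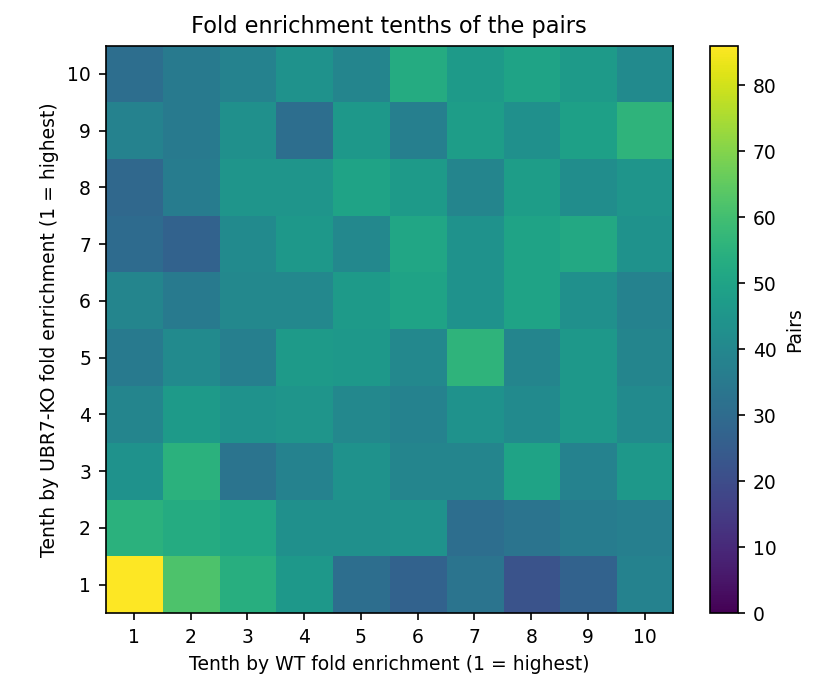
Number of pairs (colour) in 10 groups by WT fold enrichment (x axis) and 10 groups by UBR7-KO fold enrichment (y axis), both ranked within the 4257 pairs with 1 as the highest. The cell of the highest values in both holds 86 pairs, and the cell of the lowest values in both holds 41.

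In all, 3 named pairs stood highest in both lists together. The first lay on chromosome 20, with a WT peak at 62947038 to 62948427 and a UBR7-KO peak at 62947013 to 62948321. Its fold enrichment was 4.17 in WT (rank 29) and 3.36 in UBR7-KO (rank 247), and its edges differed by -25 and -106 bp. The second lay on chromosome 12, where a WT peak at 6053144 to 6055380 enclosed a UBR7-KO peak at 6053827 to 6055210, with fold enrichments of 3.35 and 3.37. The third lay on chromosome 1, where a WT peak at 45671306 to 45672494 enclosed a UBR7-KO peak at 45671401 to 45672449, with fold enrichments of 3.42 and 3.15. Their pileups were high as well, between 10.3 and 11.6 in WT, where the list median was 6.45, and between 6.26 and 7.98 in UBR7-KO, where it was 4.41.

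In the opposite case, a region led 1 list and trailed in the other. On chromosome 10, a WT peak at 28820804 to 28823219 had a fold enrichment of 3.22 (rank 1119), whereas its partner at 28820815 to 28823127 had 2.003 (rank 125645 of 127444). The positions agreed nonetheless, with 95.7% of the joined length shared. A second such pair on chromosome 10 joined a WT peak at 105323632 to 105325780 (2.99, rank 2634) with a UBR7-KO peak at 105323756 to 105324991 (2.0007, rank 127027). In reverse, a WT peak on chromosome 1 at 97036061 to 97038602 with a fold enrichment of 2.002 (rank 101318 of 101866) enclosed a UBR7-KO peak at 97036725 to 97037976 with 2.74 (rank 4118). On chromosome 10, a WT peak at 65224844 to 65226500 (2.005, rank 100103) met a UBR7-KO peak at 65224787 to 65226091 (2.72, rank 4565). These are the extremes of 4257 pairs, each with 1 value per genotype.

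Position and strength were linked when the pairs were ranked by either library. Both rankings use the same pairs and the same shifts, so they are not separate observations. Among the 426 pairs with the highest WT fold enrichment (at least 2.88), the median relative midpoint shift was 15.5% and the shared portion 66.7% of the joined length. Among the 425 with the lowest (up to 2.04), they were 23.5% and 56.8%. Ranked by UBR7-KO, the highest 426 pairs (at least 2.57) had a median shift of 16.7% and a shared portion of 65.3%, and the lowest 425 (up to 2.03) had 24.9% and 55.6%. Both edges were within 250 bp in 24.2% of the pairs highest by WT and in 12.9% of the lowest, and in 22.8% and 13.9% by UBR7-KO. The change was gradual and not strictly ordered. The median lengths of the ranked peaks in the highest and lowest groups were 1760 and 1867 bp by WT and 1700 and 1750 bp by UBR7-KO. Those of their partners were 1784.5 and 1734 bp by WT and 1877.5 and 1764 bp by UBR7-KO. The part of length in these contrasts was not tested.

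**Figure D5:**
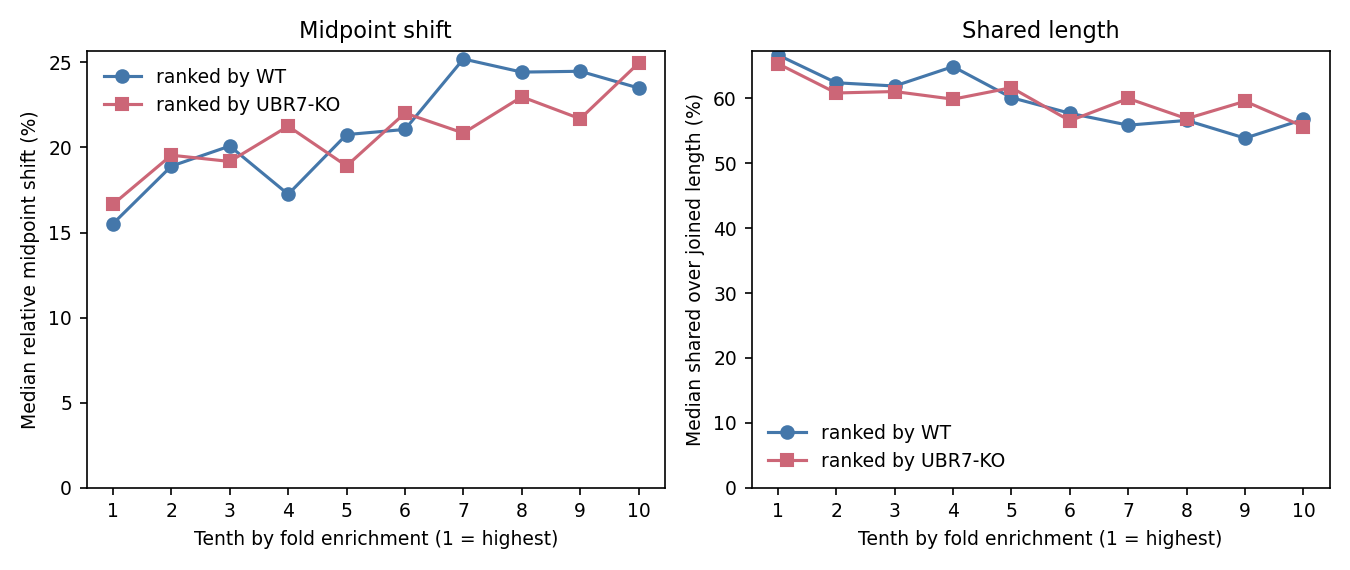
Median relative midpoint shift (left, %) and median shared over joined length (right, %) of the pairs in 10 groups of 425 or 426 by fold enrichment, with 1 the highest, ranked by the WT value (circles) or the UBR7-KO value (squares). The shift was 15.5% and 16.7% in the highest group and 23.5% and 24.9% in the lowest.

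Seen from the shift, pairs with aligned midpoints were the stronger ones in WT. The 1246 pairs with a relative shift under 10% stood at 35.0% of the WT list and 38.0% of the UBR7-KO list by median fold enrichment. The 74 pairs above 90% stood at 57.3% and 49.9%. Between 50% and 80% the UBR7-KO medians were 41.5% to 42.3%, so the order was less regular in that library. The fold enrichments of paired peaks ranked together with a rho of 0.16 in the 852 pairs of the smallest shift and 0.03 in the 852 of the largest. Both rhos are weak.

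A few pairs had very high pileup in both libraries. A pileup over 3 times the median of its list was reached by 6 paired WT peaks and 6 paired UBR7-KO peaks, and these were the same 6 pairs. The pair on chromosome 21 at 9825452 to 9827544, also the one with the most complete overlap, had the highest pileup of the whole WT list (781.56) and of the whole UBR7-KO list (997.19). The recovered background at that place was 272.4 and 289.02, so its fold enrichment was only 2.86 and 3.44. On chromosome 20, a WT peak at 26188751 to 26190508 with a pileup of 78.3 and its partner at 26188747 to 26190260 with 75.9 ranked 5 and 8. Another lay on chromosome 10, with a WT peak at 127584181 to 127585817 (pileup 60.0) and a partner at 127584130 to 127585648 (26.0). The others lay on chromosome 21 at 11143568 (41.0 in WT and 17.2 in UBR7-KO) and on chromosome 1 at 17050166 (23.5 and 14.9) and 145074976 (28.4 and 13.7), given by the start of the WT peak. These pairs were singled out after their values were seen.

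The pairs were spread over all 15 chromosomes roughly as the peaks of this length were. Chromosome 1 held 474 pairs, the most, and chromosome 21 held 84, the fewest. As a share of the 1 to 3 kb WT peaks, pairs made up between 14.1% on chromosome 11 (interval 12.5 to 15.8) and 16.7% on chromosome 21 (interval 13.7 to 20.2), and these intervals overlapped. As a share of UBR7-KO peaks, the range was from 10.2% on chromosome 11 (interval 9.01 to 11.5) to 14.3% on chromosome 21 (interval 11.7 to 17.3), where the intervals did not overlap. The median shared portion was between 56.1% of the joined length on chromosome 11 and 62.7% on chromosome 12. The WT peak was the longer in 45.5% of pairs on chromosome 12 (interval 39.9 to 51.3) and in 57.2% on chromosome 10 (interval 51.5 to 62.8). Chromosomes are not replicates, and the extremes were picked from 15.

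Paired peaks stood about as far from their neighbours as unmatched peaks of the same length class. The nearest other peak of the same list was 7838 bp away at the median for paired WT peaks and 7497 bp for 1 to 3 kb WT peaks without a counterpart. In UBR7-KO the distances were 6071 and 6055 bp. Neither peak had a neighbour in its own list within 10000 bp in 777 pairs (18.3%). The nearest other pair was 150.6 kb away at the median, and 889 pairs (20.9%) had another within 50 kb.

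Pairs just inside and just outside the limits of length were set side by side. In 463 pairs the shorter peak was less than 100 bp above the lower limit, and the median shared portion was 47.0% of the joined length. In 473 one-to-one pairs whose shorter peak was up to 100 bp below it, the portion was 44.98%. At the upper limit, the 241 pairs with a longer peak in the last 100 bp inside shared 52.1%, and the 247 pairs in the first 100 bp outside shared 50.6%. The median relative midpoint shift there was 24.0% inside and 29.2% outside, and the median WT fold rank stood at 41.4% and 45.8%.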

How the data were processed

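Peak lists of 1 WT and 1 Alb; Cre-UBR7fl/fl library were used, grouped by the genotype in the labels. Per the paper's methods, reads were aligned to hg19 with BWA aln, whereas the submitters' processing notes name Bowtie 1.1.2. Peaks were called by the authors with MACS in each library on its own, under a q-value threshold that is not given in the sources used here. The labels list total RNA as the molecule although the assay is ChIP-seq. The deposited pileup is a signal of stacked fragments that depends on depth, and depth is unknown. The deposited fold enrichment is a ratio of pileup to local background in the same library, with no value under 2. Both were compared as ranks within the own list. The deposited lengths equal end minus start plus 1 in every row.

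After removal of 6 blank rows, peaks were paired on the complete lists in hg19 positions counted from 1. Background was recovered as pileup plus 1 over fold enrichment, minus 1. Intervals are 95% Wilson intervals. Python 3.11.15, numpy 2.4.6, pandas 2.3.3 and scipy 1.17.1 were used, and the pairing code was tested on simulated data, where it recovered all 2000 pairs built in and the overlaps counted by bedtools 2.31.1. No test between genotypes was run, since each has 1 library. The members were chosen with earlier results of these data known. Named pairs are the 3 highest by summed fold ranks, the 3 of highest shared over joined length, the 2 of largest rank difference in each direction, the 2 of largest relative midpoint shift and the 1 closest to both median lengths. Alternatives changed the overlap, the length limits, the chromosomes, the fold threshold, merging and the way of ranking. Planned gene features, gene names and sequences were not analysed here, because the peaks carry human positions and only mouse reference tables were at hand.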

Additional observations from a re-analysis of the deposited data

How the results depend on the processing

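Requiring 50% of both peaks left 2974 pairs and raised the median shared portion of the joined length from 59.7% to 70.2%, with a median edge shift of 227 bp in place of 390 bp, a relative midpoint shift of 13.3% in place of 20.8% and a WT fold rank of 37.6% in place of 41.3%. These 4 values move by construction or with it, since the pairs of largest shift are removed. Length limits of 1.25 to 2.5 kb gave 1957 pairs, 68.0%, 301 bp and 16.4%, and limits of 0.75 to 4 kb gave 8029 pairs, 52.9%, 482 bp and 23.9%. The number of pairs and their fit in position thus depend on the length limits. With both lists limited to a fold enrichment of at least 2.2, 1272 pairs remained, with 64.1%, 312 bp and 17.5%, the WT peak longer in 53.1% in place of 51.4%, and a WT fold rank of 31.1% within the shortened list. The UBR7-KO fold rank was 41.9% there, against 42.5%, and the median midpoint and end shifts were -27.5 and -36.5 bp, against -9.5 and -13 bp. Merging peaks within 2000 bp moved the edge shift to 407 bp, and the cause was not tested. Ranking among 1 to 3 kb peaks moved the WT fold rank to 38.5%, by construction of the list.

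Leaving out 1 chromosome at a time gave 3783 to 4173 pairs, a shared portion of 59.6% to 59.9%, an edge shift of 385.5 to 395 bp, a relative midpoint shift of 20.6% to 21.0%, the WT peak longer in 50.9% to 51.8% and a WT fold rank of 41.1% to 41.6%. The use of all 22 autosomes, and leaving out the 6 pairs of very high pileup, which was chosen after seeing the data, kept these values within their 95% binomial intervals or, for the number of pairs, within 1.5 times. The Spearman's rho of fold enrichments was between 0.09 and 0.16 under these settings, and 0.32 when pileup was ranked. The rho of lengths, 0.12 as reported, was 0.41 with 50% of both peaks required and 0.21 at 0.75 to 4 kb. No value changed sign. Ranks were not computed for merged peaks, which have no fold enrichment. No paired analysis was possible because there is only 1 library of each genotype, and no replicate could be left out.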

Other observations

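In windows of 5 Mb, 434 windows held at least 1 pair, with a median of 10 and quartiles of 7 and 12.75. The window with the most pairs was the first of chromosome 2 (1 to 5000000) with 32, among 131 WT and 152 UBR7-KO peaks of 1 to 3 kb. It was followed by chromosome 15 (25000001 to 30000000) with 24 pairs among 112 and 129 such peaks, chromosome 14 (95000001 to 100000000) with 23 among 109 and 126, and chromosome 6 (1 to 5000000) with 21 among 104 and 125. These windows were picked as the highest of 434, and whether pairs are more uneven than the peaks they come from was not tested.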
